A study of Mus musculus with 4 samples.

Results

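A list of 8 of the 43348 genes in the matrices makes up the genes of the Crabp1 Pthlh cells: Pthlh, Kit, Egfr, Epha8, Crabp1, Igfbp4, Opn3 and Megf11. They were chosen by earlier results of these data, for their rise in Pvalb interneurons of the cortex that lack Grin1. The question is how much of that rise goes with the share of cells that belong to a small Crabp1 Pthlh population and how much with the level of each gene inside those cells. The cells are TdTomato-sorted from Nkx2-1-Cre mice with the Ai14 reporter, aged P18 to P20, from frontal cortex and hippocampus. Nkx2-1-Cre:Grin1wt/wt littermates are the wild type (WT), and Nkx2-1-Cre:Grin1fl/fl mice, in which the lineage of the medial ganglionic eminence loses the obligate NMDA receptor subunit, are the null group.

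Interneurons of the medial ganglionic eminence settle in cortex and hippocampus and take on a Pvalb, Sst or neurogliaform fate. A receptor or binding protein that marks a small population among them gives that population a private way to answer a secreted factor, a neighbouring membrane or a lipid signal. When such a gene rises in a mixed class of cells, 2 different things can have happened: more of the cells that make it, or more of it made in each cell. The members cover several of these roles. Pthlh encodes a secreted peptide hormone, Kit and Egfr encode receptor tyrosine kinases for diffusible ligands, and Epha8 encodes a receptor for membrane-bound ephrins. Crabp1 encodes a protein that holds retinoic acid in the cytoplasm, Igfbp4 a secreted protein that holds insulin-like growth factors, Opn3 an opsin of brain and other tissues, and Megf11 a transmembrane adhesion protein with EGF-like repeats.

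A total of 10 libraries is available, 3 per region from WT and 2 per region from null mice, and null mice have no replicate 3. The methods name mice of both sexes and more animals than replicates, but do not tie animals or sexes to libraries, so a p-value here measures the spread between libraries. The cell suspensions were made with TTX, APV and Actinomycin-D, and the chemistry was 10x version 2 in replicate 1 and version 3 in replicates 2 and 3. After the cell filter, 26201 of 26987 barcodes remained. What it removed was uneven: barcodes with at least 30% mitochondrial UMIs, a sign of poor RNA quality, numbered 0, 2 and 4 in cortical WT and 3 and 287 in cortical null libraries (9.90% of null replicate 2), and 0, 1 and 4 in hippocampal WT and 3 and 265 in hippocampal null libraries (5.97%). Among kept cells the median mitochondrial share was 1.36, 1.93 and 1.79% in cortical WT, 1.39 and 2.15% in cortical null, 1.56, 2.12 and 1.99% in hippocampal WT and 1.21 and 2.15% in hippocampal null libraries. Cortex kept 1277, 3830 and 3930 WT and 177 and 2578 null cells, with totals of 9306756, 14212183 and 28057207 and 1488601 and 25688337 UMIs (unique molecular identifiers, the counted transcripts). Hippocampus kept 2219, 4599 and 3135 WT and 401 and 4055 null cells, with totals of 10555408, 8782181 and 20639002 and 3856745 and 47338167.

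The median UMIs per kept cell were 7098, 2912.5 and 6499 in cortical WT, 6684 and 8786.5 in cortical null, 4411, 1479 and 5752 in hippocampal WT and 8949 and 9763 in hippocampal null libraries. In hippocampus both null libraries lie above every WT library, and in cortex null replicate 2 does while null replicate 1 lies within the WT range. The shallowest library of each region is WT replicate 2, and the smallest is null replicate 1. No pair of libraries shares more than 12 barcode sequences. Where only detection is counted, a higher value in null can go with depth. The share of cells with a UMI of each member is given below with values thinned to 1000 UMIs per cell. Counts of cells by Crabp1 UMIs, shares split by a Crabp1 UMI and numbers of members per cell are not thinned unless stated. Levels are UMIs of a gene over all UMIs of the cells summed, scaled as CPM (counts per 1e6), and an interval in brackets is a 95% interval that covers counting error alone.

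On the GRCm38 (mm10) assembly the members lie as whole gene bodies at separate places, and all are protein-coding. They are Pthlh (ENSMUSG00000048776.6, chr6:147252101-147264183, minus strand), Kit (ENSMUSG00000005672.8, chr5:75574916-75656722, plus strand), Egfr (ENSMUSG00000020122.12, chr11:16752203-16918158, plus strand) and Epha8 (ENSMUSG00000028661.8, chr4:136929419-136956816, minus strand). The others are Crabp1 (ENSMUSG00000032291.8, chr9:54764748-54773110, plus strand), Igfbp4 (ENSMUSG00000017493.8, chr11:99041244-99054392, plus strand), Opn3 (ENSMUSG00000026525.9, chr1:175662421-175692776, minus strand) and Megf11 (ENSMUSG00000036466.13, chr9:64385626-64709205, plus strand). Reads were counted against gene models whose ends had been extended by 4 kb.

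The clustering found 35 clusters, of which 12 are interneurons with 10997 cells. Of those, 3 clusters with 2156 cells carry Pvalb markers, 7 carry markers of Sst or Th cells (written SST below) and 2 those of neurogliaform cells (NGFC). The smallest Pvalb cluster, of 117 cells, is here called the Crabp1 cluster. Its 10 most enriched genes are Crabp1, Kit, Opn3, Megf11, Adamts5, Pthlh, Epha8, Hs3st2, Ramp3 and Egfr, so 7 of the 8 members are among them. Members were among the features that built the clusters, so the clustering was run again without them. That gave 34 clusters and a matching cluster of 130 cells, which holds 110 of the 117 cells (94.0%). The same 110 make up 84.6% of the 130.

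The values that chose the members are these. In cortical Pvalb cells, Pthlh was at 260.2, 106 and 74.6 CPM in WT and 266 and 649 in null libraries, a pooled 103 to 618 (6.01-fold). Kit was at 47.1, 46.5 and 43.7 CPM in WT and 219.6 and 308 in null (6.71-fold pooled), and Egfr at 2.77, 4.53 and 8.64 CPM in WT and 53.1 and 71.7 in null (10.1-fold). For these receptors every null library lies above every WT library. For Pthlh the lowest null library and the highest WT library nearly touch. Epha8 was at 1.85, 3.40 and 4.87 CPM in WT and 10.6 and 31.3 in null (7.12-fold), and Crabp1 at 45.2, 12.1 and 27.8 CPM in WT and 120.4 and 418 in null (15.4-fold).

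Igfbp4 was at 197, 144 and 124 CPM in WT and 521 and 789 in null (5.60-fold). Opn3 was at 21.2, 9.82 and 15.9 CPM in WT and 159 and 104 in null (7.28-fold), and Megf11 at 13.8, 6.42 and 5.50 CPM in WT and 42.5 and 61.6 in null (9.05-fold). None of the 8 overlap between WT and null, beside 20.3% of all 9686 genes whose libraries do not overlap (9.69% with null above). The 8 were selected on this difference, and nothing is read from it. In the same comparison, edgeR, which tests counts summed per library, called 1 of 9686 genes (0.0103%) (a call takes a log2 change of 0.144 or more either way, and an adjusted p below 0.01), Spp1, which is not a member and is named after its value was seen. At an unadjusted p under 0.05 there were 365 genes, DESeq2 called 16, and edgeR with a replicate block 4. The edgeR count is 0 without cortical WT replicate 2, WT replicate 3, null replicate 1 or null replicate 2, 2 without cortical WT replicate 1, 3 without hippocampal null replicate 1 or 2, and 10 without hippocampal WT replicate 2. Grin1 itself, the deleted gene, was at a fitted log2 change of −2.61 in these cells.

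The marker lists are given next, as the summed level of each list in the cortical cells of the cluster. The same lists named the cluster, so this is no independent check of its label. General interneuron markers reach 3732 CPM in WT and 4713 in null, with 6 of 6 genes at 20 CPM or more in WT and Gad1 at 1962 and 2753 CPM. Pvalb-class markers reach 2235 CPM in WT and 3188 in null, with 6 of 12 genes at that level in WT, led by Cox6a2, while Syt2, Eya1 and Mybpc1 have no UMI in the WT cells. Pvalb itself is at 495 and 1285 CPM in the cluster, against 1823 and 1537 in the other Pvalb cells. Neurogliaform markers reach 1136 CPM in WT and 1712 in null, led by Hapln1, with 5 of 10 genes at that level in WT and with Lamp5 and Ndnf at 0 in WT. Sst markers reach 794 CPM in WT and 249.7 in null, and per library 329, 3414 and 278 in WT and 221 and 252 in null, so the WT sum comes mainly from replicate 2. In WT 7 of 12 Sst genes are at 20 CPM or more, which is no fewer than in the Pvalb list, and in null 5 of 12. The class name did not come from these sums. It came from the list with the highest mean log2 level, each gene scaled over all clusters. Only part of the Pvalb list is at 20 CPM or more in these cells.

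The remaining lists follow. Th-cell markers are at 117 CPM in WT and 69.7 in null, markers of the caudal ganglionic eminence at 179 CPM in WT and 184 in null, glutamatergic markers at 332 CPM in WT and 244 in null with Slc17a7 at 0 in WT, and spiny projection markers at 107 CPM in WT and 77.6 in null. Cholinergic markers are at 0 in WT and 3.37 CPM in null. Among non-neuronal lists, oligodendrocyte precursors reach 9.76 CPM in WT and 16.9 in null, astrocytes 45.6 CPM in WT and 64.1 in null, microglia 3.25 CPM in WT and 3.37 in null and mural cells 32.5 CPM in WT and 19.1 in null, and choroid plexus markers have no UMI in either. Oligodendrocyte markers differ: 117 CPM in WT and 854 in null. By library they are at 125, 101 and 119 in WT and 55.2 and 924 in null, so the excess is in null replicate 2. Scrublet marked 249 of 26201 cells as doublets (0.950%) and 0 in the Crabp1 cluster. The cluster carries Nkx2-1 at 208 and 249.7 CPM (other Pvalb cells 8.07 and 27.4).

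Further landmark genes, chosen by the study on these same cells, are given beside the other cortical Pvalb cells in both genotypes. Because of that choice, nothing is read from their direction. In WT and null, Cnr1 is at 966 and 896 CPM inside and 78.3 and 51.8 outside, Pcp4 at 950.1 and 1276 and 27.0 and 39.4, and Etv1 at 335 and 455 and 38.0 and 24.7. Necab2 is at 215 and 294 inside and 7.46 and 34.4 outside, Epha4 at 703 and 569 and 14.8 and 20.1, and Hapln1 at 781 and 1404 and 39.4 and 82.7. All 6, which the study named as markers of such cells in these data, are higher inside than outside in both genotypes. The reverse holds for Reln, at 3.25 and 0 inside and 25.5 and 15.1 outside, and C1ql1, at 13.02 and 11.2 and 58.5 and 244. Grin1 falls inside as well, 143 and 21.4 CPM in WT and null, as it does outside (182 and 23.6).

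The share of cortical Pvalb cells that fall in the Crabp1 cluster comes from counts of cells, so the depth of a cell enters it through the cell filter and clustering. In WT it was 10 of 138 (7.25%, 3.98 to 12.8), 10 of 500 (2%, 1.09 to 3.64) and 18 of 646 (2.79%, 1.77 to 4.36) by library, with Wilson intervals. In null it was 7 of 28 (25%, 12.7 to 43.4) and 59 of 247 (23.9%, 19.0 to 29.6). The groups do not overlap, and neither do the intervals of WT replicates 2 and 3 with those of either null library. The interval of WT replicate 1 meets that of null replicate 1, which has 28 Pvalb cells. The mean share was 4.01% ± 2.83 (SD, n = 3) in WT and 24.4% ± 0.787 (SD, n = 2) in null, a difference of 20.4 points. Pooled over libraries it was 2.96% (2.16 to 4.04) and 24.0% (19.3 to 29.4).

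Taken over all cortical interneurons, the cluster makes up 1.23, 0.549 and 0.761% of WT and 4.93 and 5.50% of null libraries, means of 0.847% ± 0.349 (SD, n = 3) and 5.22% ± 0.406 (SD, n = 2), which again do not overlap. By transcripts, it holds 3.04% of cortical Pvalb UMIs in WT and 25.6% in null. These shares set out the difference that chose the members, and they are given without a test. With the stricter cell filter, which drops cells below 1000 genes or above 10% of UMIs from mitochondria, the Pvalb shares were 4.07% ± 2.78 and 25.7% ± 0.333. With the members left out of the clustering, the share of Pvalb cells was 6.62, 1.99 and 2.65% in WT and 25.9 and 25% in null (means 3.75% ± 2.50, n = 3, and 25.5% ± 0.655, n = 2). With cells counted by 2 or more Crabp1 UMIs in place of the cluster, the difference was 13.9 points of Pvalb cells and 3.01 points of interneurons. At the lower clustering resolution of 0.6 no cluster met the rule for a Crabp1 cluster.

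**Figure D1:**
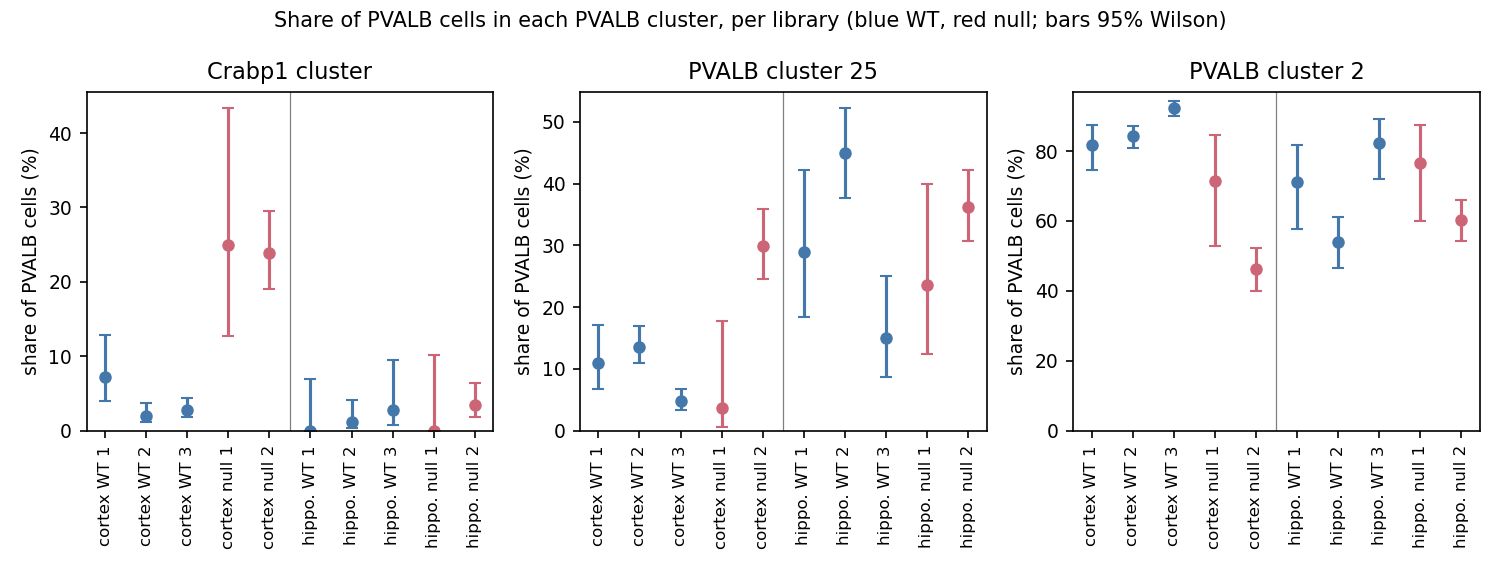
Share of Pvalb (PVALB) cells that fall in the Crabp1 cluster, cluster 25 and cluster 2 in each library, with Wilson 95% intervals. Blue is WT and red is null.

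The other Pvalb clusters move too. The larger of them, cluster 2, holds 81.9, 84.4 and 92.4% of Pvalb cells in cortical WT and 71.4 and 46.2% in null libraries. Cluster 25 holds 10.9, 13.6 and 4.80% in WT and 3.57 and 29.96% in null, which is 1 of 28 and 74 of 247 cells. For cluster 25 the null libraries lie on both sides of WT, so its pooled rise from 8.88 to 27.3% comes from null replicate 2. With the members left out of the clustering the matching cluster holds 11.03, 13.7 and 4.84% in WT and 7.41 and 30.3% in null. A share is bound to the others by its sum. Pvalb cells as a class made up 17.0, 27.5 and 27.3% of cortical interneurons in WT and 19.7 and 23.04% in null libraries, so the null libraries lie within the WT range, and the share of the Crabp1 cluster is higher in null over all interneurons as well as over Pvalb cells. Sorted cells give shares, and the number of these cells in the tissue was not measured.

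In hippocampus, whose values did not choose the members, the cluster holds 0 of 52 Pvalb cells (up to 5.77% by 3 counts of the total, and up to 6.88 by Wilson), 2 of 176 (1.14%, 0.312 to 4.05) and 2 of 73 (2.74%, 0.755 to 9.45) in WT, and 0 of 34 (up to 8.82% by 3 counts, and up to 10.2 by Wilson) and 9 of 262 (3.44%, 1.82 to 6.40) in null. The groups overlap. Means were 1.29% ± 1.38 (SD, n = 3) and 1.72% ± 2.43 (SD, n = 2), a difference of 0.426 points (2-sided exact permutation p 0.8, where the smallest possible is 0.1). Without WT replicate 1 the difference is −0.220 points, without WT replicate 3 it is 1.15, without null replicate 1 2.14 and without null replicate 2 −1.29. Over interneurons the means were 0.130% ± 0.129 and 0.255% ± 0.360 (2-sided exact permutation p 0.7), a difference that turns to −0.130 points without null replicate 2 and is 0.379 without null replicate 1. With the members left out of the clustering the Pvalb shares were 0, 3.804 and 4% in WT and 0 and 5.80% in null, a difference of 0.297 points (2-sided exact permutation p 1). With Pvalb cells counted by 1 or more Crabp1 UMIs instead, the share is 0 in all 3 WT libraries and 0 and 2.29% in null (6 cells, all of replicate 2), a difference of 1.15 points, and by 2 or more UMIs it is 0.954 points (5 cells, each with a 2-sided exact permutation p of 0.4). Over interneurons these are 0.170 and 0.141 points.

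The few hippocampal cells in the cluster differ in content by genotype. The 4 WT cells hold no UMI of Pthlh, Egfr, Epha8, Crabp1, Opn3 or Megf11, and only 4 UMIs of Kit and 2 of Igfbp4. The 9 null cells, all from replicate 2, hold Pthlh at 358 CPM, Kit at 514, Egfr at 131, Epha8 at 35.8, Crabp1 at 872, Igfbp4 at 1260.3, Opn3 at 245 and Megf11 at 71.7. Crabp1 has 146 UMIs in 6 of those 9 cells. A median of 1 member was detected per WT cell and 7 per null cell. With so few cells, all of 1 library in null, the cluster name covers cells without Crabp1 in hippocampal WT. In the 4 WT cells Sst markers reach 1883 CPM, with 9 of 12 genes at 20 CPM or more, led by Npy. Pvalb-class markers reach 2361 CPM there, with 7 of 12 genes at that level. In the 9 null cells Sst markers reach 406 CPM (4 of 12 genes) and Pvalb-class markers 3811 CPM (7 of 12).

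The level of each member inside the Crabp1 cluster separates a change within cells from the change in their number. Pthlh, the ligand, was at 1472, 848 and 742 in WT and 952 and 1109 in null in the cortical libraries, and pooled at 911 in WT and 1096 in null, a ratio of 1.20 (1.05 to 1.38), where the brackets hold the exact interval of the ratio of counts. The null libraries lie within the WT range. Kit was at 658, 808 and 959 in WT and 800.1 and 1009 in null, pooled 872 in WT and 992 in null, a ratio of 1.14 (0.991 to 1.31), and 1 null library lies within the WT range. Egfr was at 47.0, 202 and 232 in WT and 207 and 246 in null, pooled 189 in WT and 243 in null, a ratio of 1.29 (0.959 to 1.75), with 1 null library within the WT range. Epha8 was at 31.3, 60.6 and 82.5 in WT and 41.4 and 113 in null, pooled 68.3 in WT and 107 in null, a ratio of 1.56 (0.967 to 2.64), again with 1 inside. Pthlh alone of these 4 has a counting interval above 1, and its libraries overlap.

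Crabp1 was at 768, 646 and 861 in WT and 455 and 1632 in null, so its null libraries lie on both sides of WT. Pooled it was at 807 in WT and 1536 in null, a ratio of 1.90 (1.66 to 2.19). Igfbp4 was at 1833, 1313 and 2160.0 in WT and 1807 and 2268 in null, pooled 1956 in WT and 2230.1 in null, a ratio of 1.14 (1.04 to 1.25), with null replicate 1 inside the WT range. Opn3 was at 266, 242 and 314 in WT and 607 and 402 in null, pooled 293 in WT and 418 in null, a ratio of 1.43 (1.13 to 1.82), and both null libraries lie above the WT libraries. Megf11 was at 235, 263 and 144 in WT and 166 and 235 in null, pooled 182 in WT and 229 in null, a ratio of 1.26 (0.933 to 1.72), and both null libraries lie inside the WT range. Opn3 is thus the 1 of 8 members whose libraries do not overlap inside the cluster, which is near the share over the 7164 genes with at least 20 UMIs in these cells, 17.5% (10.5% with null above), and is not a result about Opn3.

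All 8 pooled levels are higher in null inside the cluster, by log2 changes of 0.27 (Pthlh), 0.19 (Kit), 0.36 (Egfr), 0.64 (Epha8), 0.93 (Crabp1), 0.19 (Igfbp4), 0.51 (Opn3) and 0.33 (Megf11). Over the same 7164 genes the median is 0.06, the 95th percentile is 1.15, and 55.1% are above 0. These cells are among those whose rise in null chose the members, so the count is no independent test, and nothing is read from it. Within replicate 2 alone, where both genotypes have the same chemistry, 7 of 8 are higher, with ratios of 1.31 (Pthlh), 1.25 (Kit), 1.22 (Egfr), 1.86 (Epha8), 2.53 (Crabp1), 1.73 (Igfbp4, 1.35 to 2.25, against 1.14 over all libraries) and 1.66 (Opn3), and Megf11 turns to a ratio of 0.895. The count is 6 without cortical WT replicate 3 and 3 without null replicate 2, whose 59 cells are most of the null cells in the cluster. The log2 changes that turn are −0.13 (Pthlh) and −0.11 (Megf11) in the former case and −0.12 (Kit), −0.71 (Epha8, from 3 null UMIs), −0.82 (Crabp1), −0.11 (Igfbp4) and −0.14 (Megf11) in the latter. Without WT replicate 3 the ratio also rises from 1.29 to 2.12 for Egfr and from 1.56 to 2.42 for Epha8. The cells of null replicate 2 are also the deepest, while null replicate 1 is close to WT replicate 3, with median UMIs of 5900, 4614.5 and 11049.5 in WT and 11043 and 14370 in null libraries. Their median mitochondrial share was 2.20, 2.53 and 2.42% in WT and 2.14 and 3.27% in null. With cells thinned to 1000 UMIs, 8 of 8 levels inside are higher in null, with a median ratio of 1.36 against 1.27 unthinned. Beyond this, whether the higher levels go with depth, the mitochondrial share or the oligodendrocyte markers was not tested. They cannot be told apart here.

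Outside the cluster the members part company. Pthlh was at 184, 92.0 and 53.6 in WT and 28.6 and 491 in null in cortical Pvalb cells outside it, and pooled at 77.4 in WT and 453 in null, a ratio of 5.86 (5.34 to 6.42). Kit was at 8.82, 31.9 and 14.9 in WT and 19.1 and 66.8 in null, pooled 18.8 in WT and 63.0 in null, a ratio of 3.35 (2.70 to 4.16). In both genes null replicate 2 lies above every WT library and null replicate 1 does not. Egfr was at 0, 0.770 and 1.62 in WT and 0 and 11.8 in null, pooled 1.23 in WT and 10.8 in null, a ratio of 8.82 (4.34 to 19.0), and Igfbp4 at 95.1, 121 and 59.96 in WT and 76.2 and 281 in null, pooled 79.9 in WT and 265 in null, a ratio of 3.31 (2.98 to 3.67). They too are raised in null replicate 2 and lie within the WT range in null replicate 1. Within replicate 2 alone the ratios outside are 5.34 for Pthlh, 2.09 for Kit, 15.3 for Egfr (from 2 WT UMIs) and 2.32 for Igfbp4.

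The other 4 have few UMIs outside. Crabp1 is pooled at 1.02 in WT and 1.16 in null, a ratio of 1.13 (0.201 to 4.41), from 10 and 3 UMIs. Epha8 is pooled at 2.15 in WT and 3.09 in null, a ratio of 1.44 (0.552 to 3.38), and Megf11 at 1.12 in WT and 1.93 in null, a ratio of 1.72 (0.468 to 5.37). Opn3 goes the other way, at 6.13 in WT and 1.54 in null, a ratio of 0.252 (0.0665 to 0.680). Thinned to 1000 UMIs the ratios are 5.54 for Crabp1, 1.44 for Epha8, 6.56 for Megf11 and 0.201 for Opn3. Over the 8 members the median ratio outside is then 4.80, against 2.52 unthinned. By the pooled values, 7 of the 8 members are higher outside in null. These cells too are among those whose rise in null chose the members, so nothing is read from the count. That count is 6 with the members left out of the clustering, without cortical WT replicate 2 or without null replicate 1. Crabp1 turns to −0.15 on the log2 scale without WT replicate 2 and to −0.14 without null replicate 1, where a few UMIs decide. Without null replicate 2 the null side is 21 cells with 209906 UMIs, where 3 counts stand for 14.3 CPM. Egfr, Epha8 and Megf11 have 0 UMIs and Crabp1 and Opn3 1 UMI each there, so at this depth their direction was not detectable. Among the others, Pthlh (6 UMIs) turns to −1.41, Igfbp4 (16 UMIs) is at −0.07 and Kit (4 UMIs) at 0.02. Without WT replicate 3 the ratio outside moves from 5.86 to 3.84 for Pthlh and from 8.82 to 19.6 for Egfr. If cells outside are those without a Crabp1 UMI, Opn3 turns to 1.76 times its WT level.

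Because cluster 25 is larger in null replicate 2, each of the other 2 Pvalb clusters was also read on its own, a division chosen after seeing the data. In cluster 2, pooled from WT to null, Pthlh went from 36.0 to 31.0 CPM and Kit from 6.39 to 2.98. Opn3 went from 6.73 to 2.38 there and Igfbp4 from 55.7 to 130.4. By library Kit was at 3.27, 5.51 and 7.22 in WT and 19.2 and 0.680 in null (5 null UMIs). Its null libraries lie on both sides of WT, and the fall rests on null replicate 2. Igfbp4 was at 66.4, 81.2 and 44.5 in WT and 76.8 and 138 in null, with null replicate 1 inside the WT range. In cluster 25, Pthlh went from 501 to 1233, Kit from 146 to 174, Egfr from 6.88 to 29.7, Epha8 from 6.88 to 4.40 and Igfbp4 from 327 to 512. In each of the 2 clusters 4 of 8 members are higher in null. Cluster 25 has no UMI of Crabp1, Opn3 or Megf11 in either genotype, so these could not be higher there. Its Pthlh by library was 1168, 437 and 384 in WT and 1234 in null replicate 2, while null replicate 1 has 1 cell there. So Pthlh marks cluster 25 as well as the Crabp1 cluster.

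The pooled change of each member in cortical Pvalb cells was then split, by the method of Kitagawa, into a part that goes with the share of UMIs in the Crabp1 cluster, a part that goes with the level inside it, and a part that goes with the level outside. The 3 parts add up to the whole change. The share part was 32.3% for Pthlh, 78.5% for Kit, 74.7% for Egfr, 75.2% for Epha8, 71.6% for Crabp1, 68.6% for Igfbp4, 85.0% for Opn3 and 86.1% for Megf11. It is the largest part for 7 of 8 members, with a median of 74.96%. The inside part was 5.15% for Pthlh, 6.71% for Kit, 12.3% for Egfr, 21.6% for Epha8, 28.3% for Crabp1, 6.23% for Igfbp4, 19.3% for Opn3 and 12.6% for Megf11. For Pthlh the largest part lies outside the cluster, at 62.6%, and this rests on null replicate 2. Without that library its outside part is −25.7% and its share part 122%, and the share part is the largest for 8 of 8 members. The inside part then falls below 0 for 5 of 8, at −53.2% for Crabp1 (share part 150%), −59.9% for Epha8 (share part 188%, with 3 null UMIs inside), −6.68% for Megf11, −5.91% for Kit and −5.55% for Igfbp4, and is 5.66% for Egfr and 31.2% for Opn3. The sign of the inside part thus rests on null replicate 2 for these 5. Without WT replicate 3 the inside part is −3.17% for Pthlh, −4.89% for Megf11, 15.1% for Kit, 27.7% for Egfr, 33.6% for Epha8 and 14.7% for Igfbp4. Without WT replicate 1 it is 8.80% for Pthlh, 3.52% for Kit and 3.84% for Egfr, and without WT replicate 2 it is 3.47% for Igfbp4. For Igfbp4 and Kit the outside part is 25.1% and 14.8%, and −0.819% and 0.127% without null replicate 2.

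For Egfr the outside part is 13%, and for Epha8, Megf11, Crabp1 and Opn3 3.18, 1.29, 0.0319 and −4.21%. Without null replicate 2 it is −2.27% for Egfr and −28.4, −2.68, 3.38 and −0.809% for the others in that order. Each of these 5 then has 0 or 1 null UMI outside. The median share part is 77.0% with the members left out of the clustering, 75.3% thinned to 1000 UMIs, 74.0% within replicate 2 and 62.7% when cells are sorted by a Crabp1 UMI, which leaves out Crabp1 itself. Leaving out single libraries gives 81.8, 74.6 and 66.1% without WT replicates 1, 2 and 3. Without null replicates 1 and 2 it is 73.1 and 108%. A part can exceed 100% when another part has the opposite sign.

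With each of the 3 Pvalb clusters as its own compartment, a division added after seeing the data, the share part was 70.8% for Pthlh, 92.3% for Kit, 81.5% for Egfr, 78.2% for Epha8, 71.5% for Crabp1, 80.6% for Igfbp4, 83.9% for Opn3 and 85.1% for Megf11, with a median of 81.1%. Without null replicate 2 the share part is 186% for Epha8, 150% for Crabp1, 97.0% for Pthlh and 105% for Igfbp4, with a median of 104% over the 8. Leaving out another cortical library gives medians from 75.1 to 83.4%. The value for Pthlh moves most against the division into 2 compartments. By this reading, the difference in size of cluster 25 enters as share and no longer as level. All values of the split describe a change on which the members were selected.

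**Figure D2:**
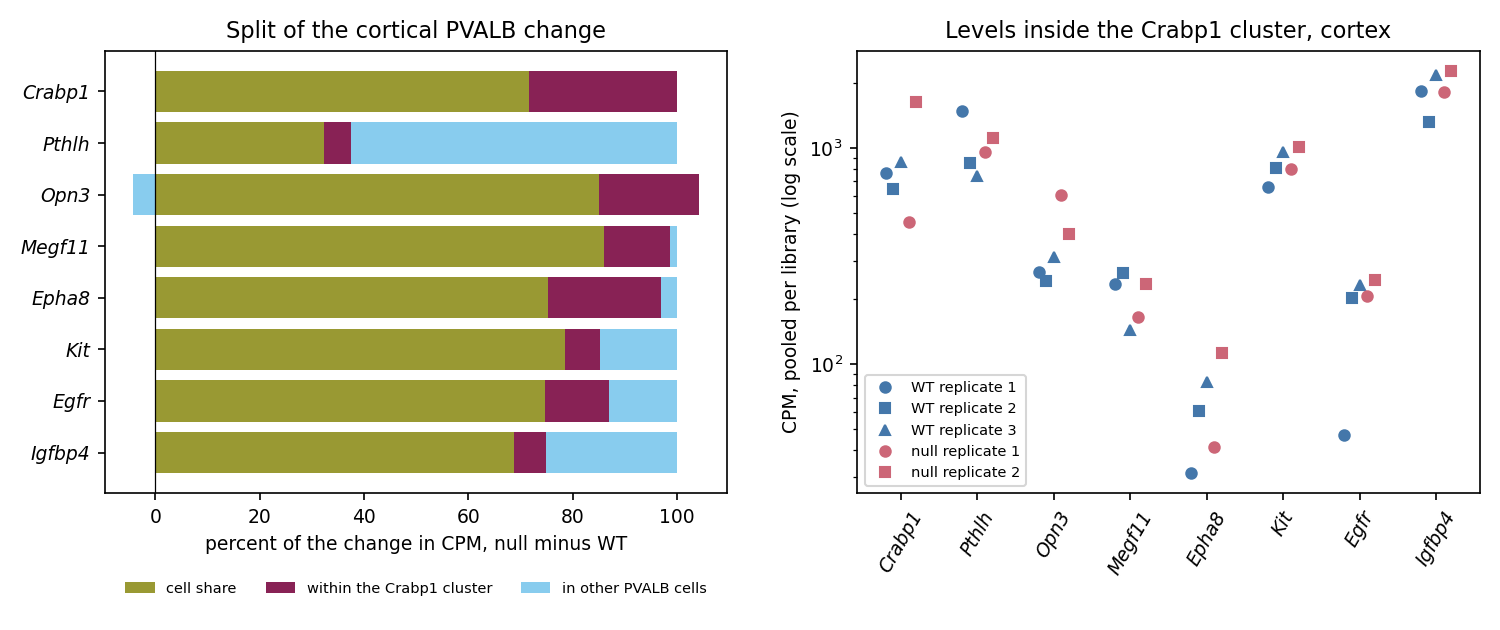
Left, parts of each member's pooled change in cortical Pvalb (PVALB) cells that go with the share of the Crabp1 cluster, the level inside it and the level outside it. Right, level of each member inside the cluster in each cortical library.

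Detection per cell gives the same cells in another view, and depth enters it directly. In the cortical cells of the cluster, median 6964.5 UMIs in WT and 14165 in null, Pthlh was detected in 89.5% and 97.0% (51.9% and 61.4% thinned) of WT and null cells, Kit in 94.7% and 95.5% (55.6% and 59.1% thinned) and Egfr in 50% and 84.8% (13.6% and 20.5% thinned). Epha8 was detected in 42.1% and 71.2% (6.77% and 9.90% thinned), Crabp1 in 97.4% and 89.4% (52.8% and 55.2% thinned) and Igfbp4 in 97.4% and 98.5% (82.4% and 85.4% thinned). Opn3 was detected in 84.2% and 95.5% (24.005% and 32.9% thinned) and Megf11 in 63.2% and 87.9% (15.7% and 19.6% thinned). Thinned to equal depth, each of the 8 is detected in a larger share of null than of WT cells. Without thinning this holds for 7, all but Crabp1. These shares pool cells over libraries, and 59 of the 66 null cells come from null replicate 2. The cells are among those whose rise in null chose the members, so nothing is read from either count. Oligodendrocytes (8687 cells, median 5421 UMIs, against 12096 in the whole cluster) give the background: 0.0345% (0.00340% thinned) for Pthlh, 2.58% (0.566% thinned) for Kit, 0.0345% (0.00809% thinned) for Egfr, 0.0230% (0.00562% thinned) for Epha8, 0.0345% (0.00515% thinned) for Crabp1, 0.944% (0.193% thinned) for Igfbp4, 0.656% (0.110% thinned) for Opn3 and 0.426% (0.0828% thinned) for Megf11.

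The members occur together in single cells of the cluster. It was formed with members among the features and picked by Crabp1, so nothing is read from this. A median of 7 of 8 was detected per cell, with 5 or more in 102 of 117 cells (87.2%), against a median of 1 and 5 or more in 3 of 2039 cells in the other Pvalb cells, and a median of 0 and 0 of 8687 in oligodendrocytes. The mean number thinned to 1000 UMIs was 3.10 in the cluster, 0.272 in the other Pvalb cells and 0.00974 in oligodendrocytes. In cortex the median was 7 in WT and 8 in null cells of the cluster. Thinned to 1000 UMIs, the mean number was 3.03 in WT and 3.44 in null. These cortical cells too are among those whose rise in null chose the members, so nothing is read from the difference. Over cortical and hippocampal cells of the cluster, 102 hold a Crabp1 UMI and 15 do not. Pthlh is detected in 96.1% of the former and 40% of the latter, Opn3 in 94.1% and 40%, Megf11 in 82.4% and 20.0%, and Epha8 in 61.8% and 26.7%. Cells without Crabp1 thus carry fewer of the other members, and the 15 include hippocampal WT cells.

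The order of levels over the interneuron clusters of WT libraries, both regions pooled, puts the Crabp1 cluster first for each of the 8 members. That cluster was formed with members among the features and picked by Crabp1. Its first place was thus largely fixed in advance, and nothing is read from it. Pthlh stands at 827 CPM (733 to 929) there, then Pvalb cluster 25 at 471 CPM (435 to 509). Kit stands at 803 CPM (711 to 904), then Pvalb cluster 25 at 117 CPM (99.1 to 136). Egfr stands at 171 CPM (130.0 to 221), then NGFC cluster 16 at 70.9 CPM (56.8 to 87.5) and NGFC cluster 4 at 63.7 CPM (57.0 to 71.0), whose intervals overlap. In WT replicate 1 of cortex Egfr is level between the clusters, at 47.0 CPM from 3 UMIs in the Crabp1 cluster and 47.1 in the neurogliaform class. Epha8 stands at 62.0 CPM (38.4 to 94.8), then Pvalb cluster 25 at 5.90 CPM (2.55 to 11.6) and NGFC cluster 4 at 4.44 CPM (2.82 to 6.67), which overlap as well.

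Crabp1 stands at 732 CPM (644 to 829), then SST cluster 23 at 10.99 CPM (7.52 to 15.5). Igfbp4 stands at 1780.5 CPM (1641 to 1928), then Pvalb cluster 25 at 322 CPM (293 to 354). Opn3 stands at 266 CPM (214 to 327), then SST cluster 23 at 29.9 CPM (23.9 to 36.9), and Megf11 at 165 CPM (125 to 215), then SST cluster 23 at 9.28 CPM (6.11 to 13.5). None of the 8 first intervals meets the next, and for the same reason nothing is read from this. In hippocampal WT alone, where the cluster has 4 cells, it comes first for Kit and for none of the other members. For Pthlh the libraries overlap, since cluster 25 reaches 1168 CPM in cortical WT replicate 1, within the range of the Crabp1 cluster over WT libraries.

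Where a gene's UMIs lie over all kept cells is another matter than its level. The Crabp1 cluster, 117 of 26201 cells, holds 76.9% of 2290 Crabp1 UMIs. It holds 27.1% of 4850 for Pthlh, of which the other Pvalb cells hold 63.7%. It holds 42.1% of 2942 for Kit. For Egfr it holds 18.9% of 1566 and NGFC cells 67.1%, and for Epha8 35.2% of 347 and NGFC cells 20.7%. For Igfbp4 the figures are 15.7% of 17771, with SST at 41.5% and NGFC at 20.3%. For Opn3 they are 36.2% of 1390, with SST at 38.0%, and for Megf11 36.0% of 755, with oligodendrocyte precursors at 38.8%. These sums pool all libraries and depend on which are in. Without cortical null replicate 2, chosen after seeing the data, the cluster holds 68.2% for Crabp1, 15.4% for Pthlh, 24.4% for Kit, 7.58% for Egfr, 13.5% for Epha8, 6.57% for Igfbp4, 20.6% for Opn3 and 15.5% for Megf11. Without hippocampal null replicate 2 it holds more, at 28.9% for Egfr, 24.7% for Igfbp4, 46.2% for Epha8 and 32.5% for Pthlh, and without hippocampal WT replicate 3 45.8% for Megf11.

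**Figure D3:**
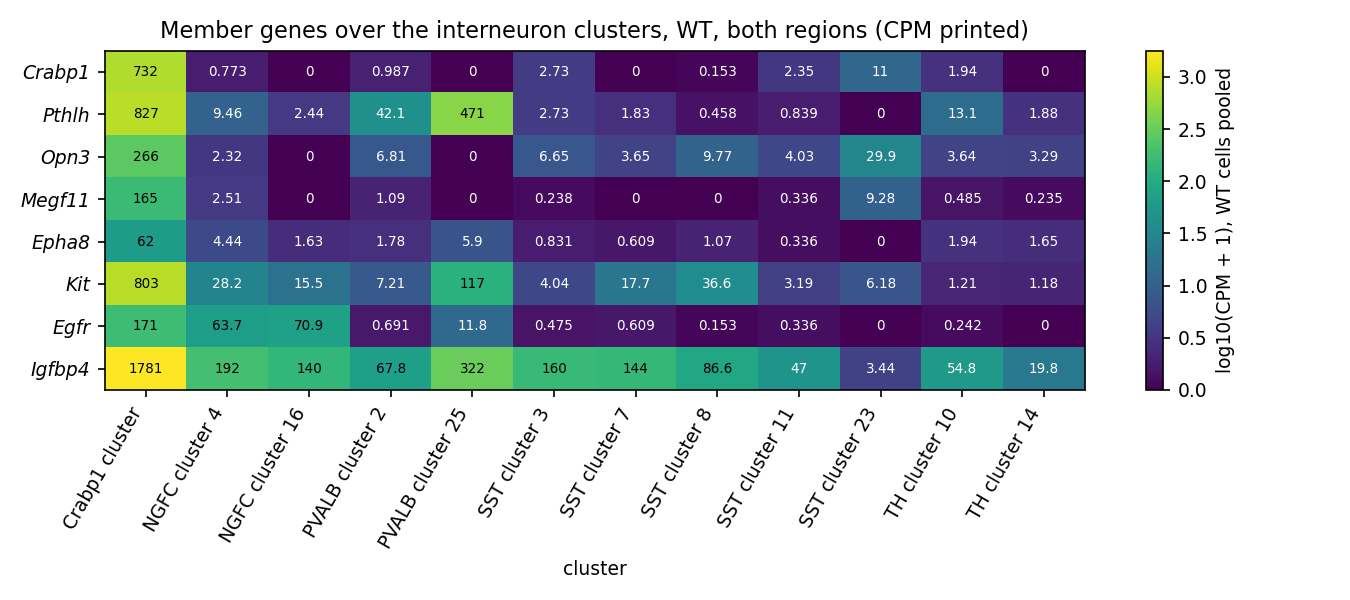
Level of each member in each interneuron cluster, over the pooled WT cells of both regions, with the CPM printed in each field.

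The Crabp1 cluster has 42 WT cells and is not among the 33 clusters with at least 50. Across those 33, the 3 genes whose levels follow each member most closely, out of 12215, were taken by correlation. They are Adamts8 (0.868), Pdlim3 (0.866) and Ramp3 (0.856) for Pthlh, Kif22 (0.683), Fam101b (0.660) and 6430573F11Rik (0.658) for Kit and Amot (0.815), Col5a2 (0.813) and A830019P07Rik (0.809) for Egfr. For Epha8 they are Gm17102 (0.863), Srrm4 (0.832) and Gabra5 (0.830), for Crabp1 Prokr2 (0.834), Gal (0.816) and Chodl (0.801) and for Igfbp4 Rgs2 (0.874), Rgs7bp (0.870) and Tiam1 (0.868). For Opn3 they are Gng4 (0.766), Tubb5 (0.755) and Psmd7 (0.733), and for Megf11 Tshz2 (0.794), Rprm (0.789) and Ntn1 (0.785). No member is among them. Between the members themselves, over the same 33 clusters, 23 of 28 pairs correlate above 0 and 5 below, with a median r of 0.196 and values from −0.192 (Opn3 with Egfr) to 0.670 (Pthlh with Epha8). With the Crabp1 cluster added, after seeing the data, all 28 pairs are above 0, with a median r of 0.475. That cluster was formed with the members as features. Over the 117 cells of the Crabp1 cluster alone, pooled over genotypes and regions, all 28 pairs are above 0, with a median r of 0.355 and values from 0.167 (Opn3 with Epha8) to 0.572 (Kit with Igfbp4). These cells share libraries and differ in depth, and they were grouped by genes that include the members.

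Hippocampal Pvalb cells give the comparison of genotypes that did not choose the members. All 8 members passed the low-count filter, which sees all 10 libraries. Pthlh was at 382, 64.8 and 168 CPM in WT and 117 and 209 in null libraries, Kit at 32.1, 48.6 and 15.6 CPM in WT and 11.3 and 37.4 in null and Egfr at 8.76, 3.60 and 7.22 CPM in WT and 0 and 8.99 in null. The groups overlap for Pthlh, Kit and Egfr. Epha8 was at 2.92, 3.60 and 2.41 CPM in WT and 2.25 and 7.53 in null, Igfbp4 at 292, 205 and 156 CPM in WT and 293 and 359 in null, and Opn3 at 2.92, 0 and 9.62 CPM in WT and 4.51 and 13.1 in null. For Igfbp4 both null libraries lie above the WT libraries, by little, and for Epha8 and Opn3 they overlap. Igfbp4 is 1 of 8 members without overlap, beside 14% of all genes tested. Crabp1 and Megf11 have no UMI in the 3 WT libraries or in null replicate 1, and stand at 35.5 and 3.64 CPM in null replicate 2.

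Against a floor of 3 counts over the WT group (1.73 CPM), Crabp1 is at least 18.5-fold higher in null and Megf11 at least 1.90-fold, and without null replicate 2 both are listed at 0 in both groups. In the edgeR fit, 0 of 9686 genes (0%) were called, among them 0 of 8 members, with 303 genes at an unadjusted p under 0.05 and 1 called by DESeq2. The log2 changes were −0.27 (SE 0.62) for Pthlh, −0.16 (SE 0.47) for Kit, 0.12 (SE 0.70) for Egfr, 1.08 (SE 0.77) for Epha8, 0.60 (SE 0.32) for Igfbp4 and 1.10 (SE 0.73) for Opn3, each at an adjusted p of 0.9996. With no low-count filter Crabp1 was called in null, at an adjusted p of 3.14e-09, where its alternatives range from 3.14e-09 to 0.9999. Its UMIs come from null replicate 2 alone, against 0 in every other hippocampal library, so nothing is read from this call. Directions depend on single libraries. Without null replicate 2, Opn3 is at −0.11 and Epha8 at −0.31, and Egfr has 0 UMIs in the null group.

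Without null replicate 1, Kit is at 0.23 and Pthlh at 0.04 in hippocampal Pvalb cells. Without WT replicate 2, Kit is at 0.42 and Egfr at −0.11, and without WT replicate 1 Pthlh is at 0.48. Igfbp4 keeps its sign in each case. Grin1 in the same fit is at −2.84 (SE 0.43, p 1.00e-05, adjusted p 0.0969). The deleted gene itself therefore fails the threshold here.

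Between regions of WT mice, Crabp1 in Pvalb cells is at 45.2, 12.1 and 27.8 CPM in cortical and 0 in all 3 hippocampal libraries, at least 14.7-fold higher in cortex against the same floor. Megf11 is at 13.8, 6.42 and 5.50 in cortex and 0 in hippocampus, at least 3.83-fold. With no UMI in hippocampus, Crabp1 could pass the low-count filter only by being high in cortex. Its lack of overlap, the 1 among the 4 members tested beside 9.07% of all genes tested, was thus fixed by passing, and nothing is read from it or from its calls under other settings. In the edgeR fit, 3 of 8761 genes (0.0342%) were called, Lamp5, Ddit4l and Rxfp3, named after their values were seen, and none of the 4 members tested. The replicate numbers pair the WT libraries of the regions, and with the replicate as a block 66 genes were called. At an unadjusted p under 0.05 there were 384 genes, DESeq2 called 29, and leaving out any 1 of the 6 libraries (cortical WT replicate 1, 2 or 3, hippocampal WT replicate 1, 2 or 3) gave 0. Hippocampus against cortex, Kit was at −0.54 (SE 0.38), Pthlh at 0.45 (SE 0.59) and Igfbp4 at 0.48 (SE 0.31), each at an adjusted p of 0.99997. Without hippocampal WT replicate 1 Pthlh turns to −0.32.

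SST cells hold less of most members and give a further comparison of genotypes. In cortex, Pthlh was at 3.81, 1.68 and 1.51 CPM in WT and 4.44 and 3.05 in null, Kit at 7.05, 14.5 and 13.3 CPM in WT and 8.89 and 10.3 in null, and Crabp1 at 0.571, 1.68 and 3.78 CPM in WT and 2.22 and 9.15 in null. The groups overlap for all 3. Igfbp4 was at 43.6, 40.9 and 41.3 CPM in WT and 76.6 and 59.3 in null, with both null libraries above WT, and Opn3 at 9.52, 9.80 and 8.10 CPM in WT and 8.89 and 16.8 in null, which overlaps. That makes 1 of the 5 members tested without overlap, beside 16.1% of all genes tested. In the edgeR fit 0 of 12832 genes (0%) were called and 0 of the 5 members tested, with 277 genes at an unadjusted p under 0.05 and 2 called by DESeq2. The log2 changes were 0.60 (SE 0.64) for Pthlh, −0.24 (SE 0.52) for Kit, 1.63 (SE 0.73) for Crabp1, 0.69 (SE 0.31) for Igfbp4 and 0.60 (SE 0.44) for Opn3. The adjusted p was 0.9998 for each. Without null replicate 2 Opn3 is at −0.01 and Crabp1 at 0.08, and Crabp1 runs up to 2.07 with other libraries left out, so its change rests on null replicate 2.

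In hippocampal SST cells, Pthlh was at 8.75, 1.97 and 6.29 CPM in WT and 3.38 and 5.20 in null, Kit at 1.64, 2.47 and 4.65 CPM in WT and 0 and 3.20 in null, and Crabp1 at 1.09, 0.494 and 1.64 CPM in WT and 0 and 2.32 in null. Igfbp4 was at 347, 186 and 175 CPM in WT and 245 and 296 in null, and Opn3 at 1.64, 2.96 and 6.84 CPM in WT and 3.38 and 7.20 in null. The groups overlap for all 5, beside 17.7% of all genes tested without overlap. The edgeR fit called 0 of 12832 genes (0%) and 0 of 5 members, with 467 genes at an unadjusted p under 0.05 and 2 called by DESeq2. The log2 changes were −0.28 (SE 0.60) for Pthlh, −0.36 (SE 0.64) for Kit, 0.60 (SE 0.97) for Crabp1, 0.23 (SE 0.31) for Igfbp4 and 0.53 (SE 0.51) for Opn3, at adjusted p-values from 0.972 to 0.991. Without WT replicate 1 Pthlh is at 0.08, and without WT replicate 3 Kit is at 0.24. Without null replicate 1 Kit is at 0.03, and without null replicate 2 Opn3 is at −0.22 and Crabp1 is listed at 0 in null. Grin1 is at −2.81 (SE 0.33, p 1.88e-06, adjusted p 0.0241) in these cells.

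Between regions of WT mice, SST cells show Igfbp4 at 43.6, 40.9 and 41.3 CPM in cortex and 347, 186 and 175 in hippocampus, which do not overlap. Its log2 change, hippocampus against cortex, is 2.43 (SE 0.31, p 3.14e-05, adjusted p 0.0269), from 2.05 to 2.59 with single libraries left out, and it is higher in 3 of 3 libraries. It misses the threshold of 0.01 in edgeR and passes it in DESeq2 (adjusted p 2.06e-10), with no low-count filter and with a replicate block, where the alternatives range from 2.06e-10 to 0.0329. Kit goes the other way, at 7.05, 14.5 and 13.3 and 1.64, 2.47 and 4.65 CPM without overlap, −1.95 (SE 0.44, p 0.00177, adjusted p 0.151). It was called with no low-count filter (adjusted p 0.00803) and with a replicate block, with a range from 0.00106 to 0.259. Opn3 was at −1.20 (SE 0.44, p 0.0234, adjusted p 0.494) and Pthlh at 1.27 (SE 0.57, p 0.0550, adjusted p 0.702). With Opn3, 3 of the 4 members tested have libraries that do not overlap, beside 12.6% of all genes tested. Kit and Opn3 passed the low-count filter only by their level in cortex, where they are high. Nothing is therefore read from this count, or from the lack of overlap or the calls of Kit and Opn3. Of 11969 genes 5 were called (0.0418%), Sfrp2, Ctsc, Aga, RP24-323H7.4 and Tenm2, named after their values were seen. With the replicate as a block, which pairs the WT libraries of the regions, 337 were called, Igfbp4 (adjusted p 1.36e-06) and Kit (adjusted p 0.00106) among them, while Pthlh and Opn3 were at adjusted p-values of 0.0810 and 0.0857. At an unadjusted p under 0.05 there were 868 without the block, and DESeq2 called 126. The count is 0 without cortical WT replicate 1, 2 or 3 or hippocampal WT replicate 3, and 2 without hippocampal WT replicate 1.

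**Figure D4:**
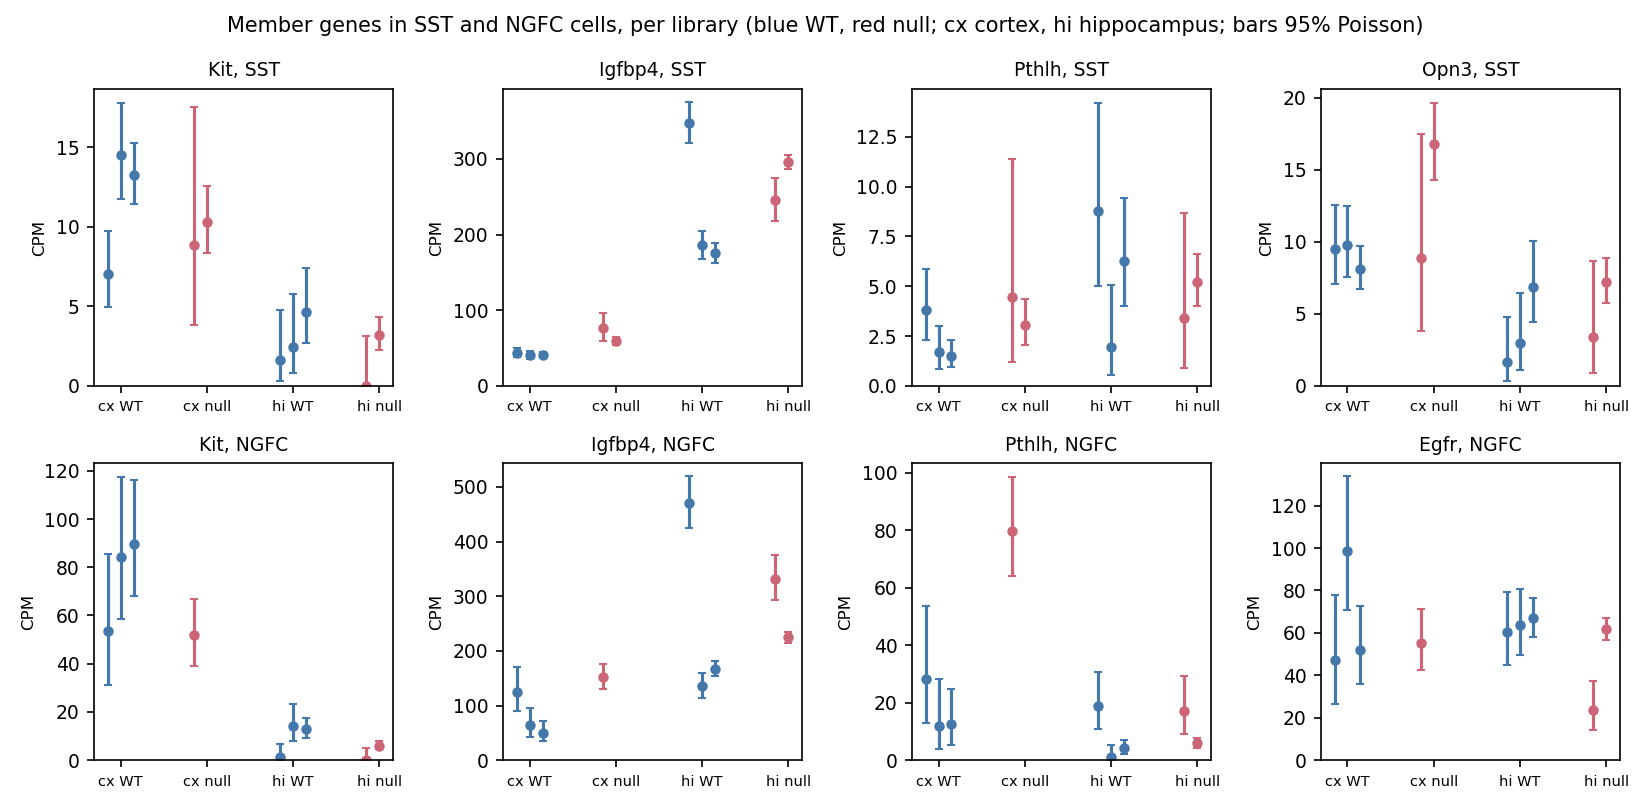
Levels of Kit, Igfbp4 and Pthlh in SST and neurogliaform (NGFC) cells, of Opn3 in SST and of Egfr in NGFC cells, per library with exact Poisson 95% intervals. The cortical null library with under 10 NGFC cells is not drawn.

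Neurogliaform cells are a further source of Egfr, Kit and Igfbp4. In cortical WT and null replicate 2, Egfr was at 47.1, 98.8 and 51.9 and 55.3 CPM, Kit at 53.4, 84.3 and 89.7 and 51.7, and Pthlh at 28.3, 12.0 and 12.6 and 79.8. Igfbp4 was at 126, 65.0 and 50.3 and 152. Null replicate 1 has under 10 neurogliaform cells in cortex and is not in the fit, so the null arm is 1 library that is assumed to vary like the others. Pthlh and Igfbp4 lie above the WT libraries in it, Kit just below them and Egfr among them, beside 40% of all genes tested that lie outside the WT range in this 1 library. In that fit 0 of 10024 genes (0%) and 0 of 4 members were called, with 155 genes at an unadjusted p under 0.05 and 0 called by DESeq2. The log2 changes were 2.23 (SE 0.87) for Pthlh, −0.58 (SE 0.79) for Kit, −0.26 (SE 0.54) for Egfr and 0.93 (SE 0.67) for Igfbp4, each at an adjusted p of 1, and without cortical WT replicate 2 Egfr is at 0.11.

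In hippocampal neurogliaform cells, Egfr was at 60.3, 63.7 and 66.9 CPM in WT and 23.7 and 61.7 in null, Kit at 1.18, 14.1 and 12.8 CPM in WT and 0 and 5.95 in null, and Pthlh at 18.9, 0.937 and 4.16 CPM in WT and 17.1 and 5.84 in null. Igfbp4 was at 471, 136 and 167 CPM in WT and 332 and 225 in null. The groups overlap for all 4, beside 18.9% of all genes tested without overlap. The fit called 0 of 10024 genes (0%) and 0 of 4 members, with 323 at an unadjusted p under 0.05 and 1 by DESeq2. The log2 changes were 0.48 (SE 0.84) for Pthlh, −1.19 (SE 0.72) for Kit, −0.52 (SE 0.41) for Egfr and 0.14 (SE 0.52) for Igfbp4, at adjusted p-values from 0.963 to 0.989. Pthlh turns to −0.31 without null replicate 1 and −0.03 without WT replicate 2. Igfbp4 turns to −0.23 without null replicate 1, −0.16 without WT replicate 2 and −0.11 without WT replicate 3.

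Between regions of WT mice, neurogliaform cells have less Kit in hippocampus than in cortex in all 3 libraries, without overlap, at −2.88 (SE 0.55, p 3.49e-04, adjusted p 0.345). It was called by DESeq2 (adjusted p 8.40e-04), with no low-count filter and with a replicate block, with a range from 7.39e-07 to 0.345. Igfbp4 was at 1.73 (SE 0.54, p 0.00873, adjusted p 0.99998), called with no low-count filter (adjusted p 0.00824) and with a replicate block, with a range from 0.00824 to 0.99998. Egfr was at 0.00 (SE 0.34, p 0.997, adjusted p 0.99998), turning to 0.36 without cortical WT replicate 2 and 0.03 without hippocampal WT replicate 1. Kit and Igfbp4 are 2 of the 3 members tested without overlap, beside 6.75% of all genes tested. Kit passed the low-count filter only by its level in cortex, where it is high. Nothing is therefore read from this count, or from the lack of overlap or the calls of Kit. The edgeR fit called 0 of 7926 genes (0%) and 0 of the 3 members tested, with 218 at an unadjusted p under 0.05 and 5 by DESeq2. With the replicate as a block 10 were called, Kit (adjusted p 0.00417) and Igfbp4 (adjusted p 0.00969) among them.

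Whether the effect of genotype differs between regions was tested as an interaction in the classes that did not choose the members. In SST cells 0 of 12832 genes were called and in neurogliaform cells 0 of 10024, by edgeR, with 65 and 42 at an unadjusted p under 0.05 (DESeq2 was not run on it), and the adjusted p of each member was at least 0.9999. Hippocampal minus cortical change in SST cells was −0.88 for Pthlh, −0.11 for Kit, −1.03 for Crabp1, −0.46 for Igfbp4 and −0.07 for Opn3. In neurogliaform cells it was −1.75 for Pthlh, −0.61 for Kit, −0.26 for Egfr and −0.79 for Igfbp4. In Pvalb cells this difference was not tested, since the cortical arm chose the members.

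Partners of the members, such as ligands, receptors and signalling proteins, were followed as 8 lists that leave the members out. By edgeR, 0 genes of any list were called up and 0 down in each of the 9 comparisons. In hippocampal Pvalb cells the median log2 changes were 0.01 over 3 of 6 genes tested (PTHrP), −0.01 over 6 of 10 genes tested (KIT), −0.25 over 3 of 13 genes tested (EGFR), −0.15 over 12 of 19 genes tested (Eph and ephrin), −0.20 over 5 of 18 genes tested (Retinoid), 0.18 over 4 of 13 genes tested (IGF) and 0.17 over 2 of 5 genes tested (MEGF), beside −0.01 over all 9686 genes, and 0 genes of the 7 lists had an unadjusted p under 0.05, beside 3.13% of all genes. DESeq2 called 1 gene there over all genes tested. Between WT regions in SST cells the medians were 0.23 over 3 of 6 genes tested (PTHrP), 0.13 over 8 of 10 genes tested (KIT), 0.38 over 5 of 13 genes tested (EGFR), 0.34 over 16 of 19 genes tested (Eph and ephrin), −0.19 over 10 of 18 genes tested (Retinoid), 0.14 over 9 of 13 genes tested (IGF) and 0.05 over 2 of 5 genes tested (MEGF), beside 0.03 over all 11969. At an unadjusted p under 0.05 there were 0 (PTHrP), 2 (KIT), 2 (EGFR), 7 (Eph and ephrin), 5 (Retinoid), 3 (IGF) and 0 (MEGF), beside 7.25% of all genes, with no test of a list against that share. None of the 6 genes of the opsin list was tested in any comparison, for lack of counts.

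Inside the cortical cells of the Crabp1 cluster the most abundant gene of each of the 7 lists with genes tested was Gnas for PTHrP (1829 and 1815 CPM in WT and null), Grb2 for KIT (130.2 and 120.3), Erbb4 for EGFR (423 and 579), Epha4 for Eph and ephrin (703 and 569), Fabp5 for retinoid (286 and 193), Igf1 for IGF (179 and 83.2) and Megf9 for MEGF (74.8 and 77.6). Counts of partners say nothing of protein or of signalling.

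Promoter sequences, 250 bases before to 50 after the RefSeq start on GRCm38.p6, were matched by symbol for 7 of the 8 members in the file used, and not for Megf11. Over all 32851 promoters of this length, the GC box (GGGCGG, read on both strands) occurs in 35.7%, the core of the NK2 homeodomain site (CAAGTG) in 13.6% and the nuclear receptor site AGGTCA in 16.3%. Among the members it is 6 of 7, all but Igfbp4, for the GC box, 2 of 7 for the NK2 core and 0 of 7 for AGGTCA. Their GC content runs from 62.3 to 84.3%, beside a median of 52.7% over all promoters. A match is a description of the sequence and shows no binding. Crabp1 (chr9:54764498-54764797, plus strand, GC 65.0%) has 5 GC boxes and Pthlh (chr6:147263964-147264263, minus strand, GC 74.0%) has 4, in capitals below.
Crabp1: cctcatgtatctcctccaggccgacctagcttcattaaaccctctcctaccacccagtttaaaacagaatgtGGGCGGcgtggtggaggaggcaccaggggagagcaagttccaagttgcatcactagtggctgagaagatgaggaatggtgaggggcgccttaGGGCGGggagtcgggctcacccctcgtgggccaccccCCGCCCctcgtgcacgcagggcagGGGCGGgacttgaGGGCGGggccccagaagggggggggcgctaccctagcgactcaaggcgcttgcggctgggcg
Pthlh: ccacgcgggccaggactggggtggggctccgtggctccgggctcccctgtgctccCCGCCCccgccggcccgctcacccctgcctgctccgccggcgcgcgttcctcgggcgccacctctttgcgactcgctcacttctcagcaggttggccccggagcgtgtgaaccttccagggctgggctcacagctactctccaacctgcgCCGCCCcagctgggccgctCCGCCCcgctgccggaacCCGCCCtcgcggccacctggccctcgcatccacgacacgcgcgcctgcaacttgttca

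The 2 members with the NK2 core are Opn3 (chr1:175692583-175692882, minus strand, GC 70.0%) and Kit (chr5:75574737-75575036, plus strand, GC 69.0%, the first of 2 RefSeq entries). Opn3 is shown on its own strand, and in Kit the match is the reverse complement, CACTTG. Nkx2-1, the factor whose Cre line marks these cells, is in the homeodomain family that this core is named for.
Opn3: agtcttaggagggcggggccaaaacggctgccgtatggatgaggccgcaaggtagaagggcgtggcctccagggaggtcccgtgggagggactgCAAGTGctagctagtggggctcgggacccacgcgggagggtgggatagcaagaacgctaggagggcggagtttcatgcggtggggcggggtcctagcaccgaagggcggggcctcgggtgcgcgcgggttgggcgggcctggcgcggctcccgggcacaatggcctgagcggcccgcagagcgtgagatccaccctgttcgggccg
Kit: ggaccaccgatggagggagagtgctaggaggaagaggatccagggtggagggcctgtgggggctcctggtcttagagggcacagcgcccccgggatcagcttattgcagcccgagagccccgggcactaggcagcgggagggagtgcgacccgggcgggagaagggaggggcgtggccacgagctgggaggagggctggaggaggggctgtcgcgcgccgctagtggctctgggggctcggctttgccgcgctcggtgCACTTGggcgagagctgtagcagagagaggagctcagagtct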

How the data were processed

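The deposited matrices hold UMI counts per gene and cell, made by the authors with Cell Ranger (2.1.1 by the methods, 3.0.2 by the matrix headers) on mm10, where gene ends had been lengthened (4 kb). The 4 matrices split by barcode suffix into 10 libraries, 3 WT and 2 null per region. A cell was kept at 200 to 6000 detected genes with less than 30% of its UMIs mitochondrial. Seurat 5.3.0 (SeuratObject 5.2.0, R 4.3.3) integrated the 4 matrices by CCA on 2000 features and clustered the cells on 25 dimensions at resolution 1.0. Libraries within a matrix, and with them the chemistry versions, were not aligned to each other. Clusters were named by marker lists (at least 3 markers at 20 CPM or more, Gad1 at 200 CPM or more for interneurons). The name is that of the list with the highest mean log2 level, each gene scaled over all clusters. The Crabp1 cluster is the PVALB cluster led by Crabp1. Scrublet ran through scanpy 1.11.5 at a rate of 0.06.

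Counts were summed per library and class (at least 10 cells) and fitted with edgeR 4.0.16 (limma 3.58.1, TMM, filterByExpr, quasi-likelihood). Genotype fits hold all groups of a class and region fits the WT libraries. Same-numbered WT libraries of the regions deviated together from their group means (r 0.492, 0.541 and 0.304 in PVALB, 0.638, 0.610 and 0.371 in SST, 0.460, 0.352 and 0.141 in NGFC), so the numbers, from the cell numbers the methods give per replicate, were taken to pair them. In NGFC, cortical WT replicate 3 correlated slightly more with hippocampal WT replicate 2 (r 0.161) than with hippocampal WT replicate 3. A call takes both a Benjamini-Hochberg adjusted p under 0.01 and a change of 0.144 or more in log2 (0.1 in natural log). Shares of cells were compared by exact permutation of library labels. Intervals (95%) are Wilson for shares, exact Poisson for levels and Clopper-Pearson for ratios of counts. The floor is 3 counts over a group. The cortical change in PVALB cells was split by the method of Kitagawa on pooled levels. Nearest genes were ranked by Pearson r of log2 levels with a pseudocount of 1 CPM, over clusters of at least 50 WT cells and genes of at least 100 UMIs. Promoters run from 250 bases before to 50 after the RefSeq start. Python 3.11.15, numpy 2.4.6, pandas 2.3.3, scipy 1.17.1 and matplotlib 3.10.9 were used.

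Alternatives were DESeq2 1.42.0, no TMM, no low-count filter, a replicate block, only the 2 groups compared, sums of at least 20 cells, adjusted p under 0.05, a stricter cell filter (1000 genes, 10%), doublets removed, resolutions 0.6 and 1.4, clustering without the members, Crabp1 UMIs in place of the cluster, thinning to 1000 UMIs, replicate 2 alone, and each library left out. Fits were tested on simulated data.

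The members and lists were chosen with earlier results of these data known. Genes are named by a rule: the 8 members, Grin1, the 3 nearest genes of each member, genes of the pathway lists (retinoid, PTHrP, KIT, EGFR, IGF, Eph and ephrin, opsin, MEGF) that pass the threshold or else the highest of each list in the Crabp1 cluster, and landmark genes that the study chose on these cells. The markers of each class are named where a list is given.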

Additional observations from a re-analysis of the deposited data

Results flagged for a closer look

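Crabp1 UMIs also lie in cells that the comparisons do not use. Cluster 24, which no marker list named, has 408 cells, led by Oxt, Avp, Galr1 and Lhx8, genes named after their values were seen. Its Crabp1 level is 107 CPM (95.3 to 120), from 291 UMIs in 18 cells, above the 15.8 CPM of the highest interneuron cluster other than the Crabp1 cluster. Cluster 31, also unnamed, has 163 cells and Crabp1 at 42.8 CPM (20.5 to 78.8), from 10 UMIs in 6 cells.

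Among barcodes left out by the cell filter, Crabp1 stands at 31.3 CPM in cortical null libraries, from 33 UMIs in 8 of 324 barcodes, above the 4.56 CPM of WT, from 4 UMIs in 51 barcodes. The sets are unlike: 29 of the 51 WT barcodes are over 6000 genes and 6 over the mitochondrial limit (median 25408 UMIs), against 23 and 290 of the 324 null barcodes (median 822.5 UMIs). In hippocampus the barcodes left out hold Crabp1 at 0 in WT and 0.541 CPM in null, from 2 UMIs. Why these cells and barcodes hold Crabp1 was not tested.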

How the results depend on the processing

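Calls of genes depend on the tool and the filter. With DESeq2 the counts were 1 (genotype, hippocampal PVALB), 16 (cortical PVALB), 29 (region, WT PVALB), 2 (hippocampal SST), 2 (cortical SST), 126 (region, WT SST), 1 (hippocampal NGFC) and 5 (region, WT NGFC). With no low-count filter they were 13, 60, 86, 20, 25, 138, 21 and 31 in that order, and 4 in cortical NGFC. With a replicate block they were 4 (cortical PVALB), 66 (region PVALB), 337 (region SST) and 10 (region NGFC), and at an adjusted p under 0.05 14, 11 and 35 for the first 3 of these and 1 each for hippocampal and cortical SST. Fitting only the 2 groups gave 13 in cortical PVALB, resolution 1.4 gave 0 there, and removing doublets or resolution 0.6 gave 3 in region SST. Of 105 such counts 75 stayed within 1.5 times the reported count. Leaving out 1 library gave 0 to 10 calls in cortical PVALB, 0 in region PVALB and 0 to 5 in region SST, with 58 of 77 counts within 1.5 times. The cause was not tested.

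The difference in share in cortex was 13.9 points of PVALB cells and 3.01 points of interneurons with cells counted by 2 or more Crabp1 UMIs, and 4.996 points of interneurons with the stricter cell filter. It kept its direction in every alternative that gave a value, and resolution 0.6 gave none for lack of a Crabp1 cluster. With 1 library left out, the hippocampal difference ran from −1.29 to 2.14 points of PVALB cells and from −0.130 to 0.379 points of interneurons. The median share part of the split was 62.7% with cells sorted by a Crabp1 UMI and ran from 66.1 to 108% with 1 library left out. Members higher in null ran from 3 to 8 inside the cluster and from 2 to 7 outside it. The 2 outside sets 5 members at 0 or 1 UMI in null replicate 1 against WT. The counts were 4 in PVALB cluster 2 and 4 in PVALB cluster 25, each read alone after seeing the data. In cluster 25, Crabp1, Opn3 and Megf11 have no UMI and could not be higher.

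Of 509 log2 changes of members under alternatives, 486 kept their direction and side of the threshold (in cortical PVALB, which has no test here, stayed within 1 SE), 15 passed it newly, 3 in cortical PVALB moved by more (Kit to 1.41 and Igfbp4 to 1.09 at resolution 0.6, Egfr to 3.93 with a replicate block) and 5 turned: Egfr to −0.0485 in hippocampal PVALB with DESeq2, Kit to 0.71 between WT PVALB at resolution 0.6, and Egfr between WT NGFC to 0.0455 with a replicate block, 0.0108 at resolution 0.6 and 0.0499 with clustering without the members. Of 390 with 1 library left out, 23 turned, and Crabp1 in cortical SST, which kept its sign, ran from 0.0821 to 2.07. In hippocampal PVALB the ranges were −0.11 to 3.19 (Opn3), −0.31 to 1.32 (Epha8), −1.42 to 0.42 (Kit), −0.72 to 0.48 (Pthlh) and −6.48 to 0.46 (Egfr), and for Pthlh between WT PVALB −0.32 to 1.17. In hippocampal SST they were −0.22 to 1.35 (Opn3), −6.93 to 0.24 (Kit), −0.66 to 0.0782 (Pthlh) and −5.51 to 1.16 (Crabp1), and in cortical SST −0.00664 to 0.90 (Opn3). In NGFC they were −0.31 to 1.61 (Pthlh, hippocampal), −0.23 to 0.88 (Igfbp4, hippocampal), −0.41 to 0.11 (Egfr, cortical) and −0.17 to 0.36 (Egfr, between WT regions). The values −6.48, −6.93 and −5.51 set a group with counts against 1 with none, and are no bounds. The cause of the other turns was not tested. Depth limits detection: WT replicate 2 is the shallowest library of each region.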
